A study of Pinus pinaster with 24 samples.

Results

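The root cap of maritime pine (Pinus pinaster) was compared with the developing cortex of the root tip. The comparison rests on 12 of the 24 libraries of the series: 6 from the root cap and 6 from the developing cortex, chosen by their tissue label. Seedlings of 1 month, grown in vermiculite from seeds of the Segura-Alcaraz provenance, had been kept for 3 days on a nutrient solution without nitrogen, and every group shares this. Each then received 80 mL of a 3 mM solution, either potassium nitrate or KCl, which served as the control, and root tips were taken 2 h later. Areas were cut from frozen sections of 30 µm by laser microdissection. The 4 groups used here are root cap with nitrate, root cap with KCl, developing cortex with nitrate and developing cortex with KCl, with 3 libraries each. The remaining 12 libraries come from the root meristem and the developing vascular tissue of the same treatments. Per the labels, the areas correspond to these tissues only approximately. How many seedlings a library pooled is not in the labels, nor is whether each experiment was a culture of its own. The p-values below therefore describe the spread among these libraries, which may be technical.

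The root cap sheathes the apex of the root. Its central column of cells senses gravity with starch-filled plastids, and its outer cells secrete mucilage and are shed as the root grows through soil. The cortex is the ground tissue between the surface and the vascular cylinder, through which water and ions move inward. In pine and other gymnosperms, the cap and the cortex arise from a shared group of initial cells at the apex.

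Transcripts are known here only by their IDs, since 0 of the 51211 IDs come with a gene name. The labels of both areas could therefore not be set against marker genes, and no function is given to any transcript. Of the transcripts called in a contrast, at most 2 in each direction are named by rule, and the others are described by their number and level.

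Libraries with the same solution and experiment number are treated below as 1 root-tip set, which gives 6 matched pairs of cap and cortex. The authors' values are a scaled count signal that they named CPM. The 12 libraries held 46536899 to 51517525 recovered reads, and 3 reads corresponded to 0.0556 to 0.074 CPM, so levels well below 1 CPM were resolved. Between 1.76% and 5.16% of transcripts had no read in a library. The first principal component of the 12 libraries held 74.99% of the variance and parted cap from cortex. The second component held 6.4%. Cap libraries of 1 solution correlated with each other at Pearson's r of 0.897 to 0.95 over transcripts, and cortex libraries of 1 solution at 0.925 to 0.967; transcripts are no replicates, so no p is given. Between the cap and the cortex of 1 set r was 0.58 to 0.763, below every value within an area.

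Most transcripts differed between root cap and developing cortex. Of the 48019 transcripts tested, 76.1% were called: 18026 were higher in the cap (37.5%) and 18531 were lower (38.6%), by limma on log2(CPM + 0.5) with the set as a block and a Benjamini-Hochberg adjusted p below 0.05. The same sign was seen in all 6 sets for 16095 of the higher and 16899 of the lower transcripts. Cap and cortex libraries did not overlap for 11576 transcripts with the cap above (24.1% of those tested) and 12945 with the cap below (27%). edgeR on the recovered reads called 18161 higher (37.8%) and 17715 lower (36.9%), of which 17913 and 17685 were shared with limma. The directions were nearly balanced on the deposited scale, where the median fold change was near 0 (-0.01 on the log2 scale). With plain total scaling that median was -0.16, and 15697 transcripts were called higher and 20570 lower. In bulk samples such as these, fewer cells of a type and less RNA per cell cannot be told apart.

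The differences were large. The median absolute fold change over all transcripts tested was 0.919 on the log2(CPM + 0.5) scale, with a median standard error of 0.168. The fold changes ran from -0.96 at the 25th percentile to 0.88 at the 75th, and from -2.59 at the 5th to 2.72 at the 95th. A change of at least 2-fold was called for 10816 transcripts higher in the cap (22.5%) and 11592 lower (24.1%). A change of at least 4-fold was called for 4581 transcripts higher in the cap (9.54%) and 4416 lower (9.2%). At 16-fold the counts parted: 677 transcripts were higher (1.41%) and 402 lower (0.837%). At 64-fold 78 were higher (0.162%) and 31 lower (0.0646%). The 16-fold and 64-fold counts were taken on the deposited scale only, and whether this lean to the cap holds with another scaling was not tested. Within single sets the lean at 16-fold was not shared by KCl set 3, where 1046 transcripts were higher and 1193 lower. The extremes of the distribution were 11.76 and -9.52 on the log2 scale. Of the 11462 transcripts that were not called, 4283 had a 95% interval within 0.5 of 0 on the log2 scale, and 644 had an interval reaching beyond 1 in size.

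**Figure D1:**
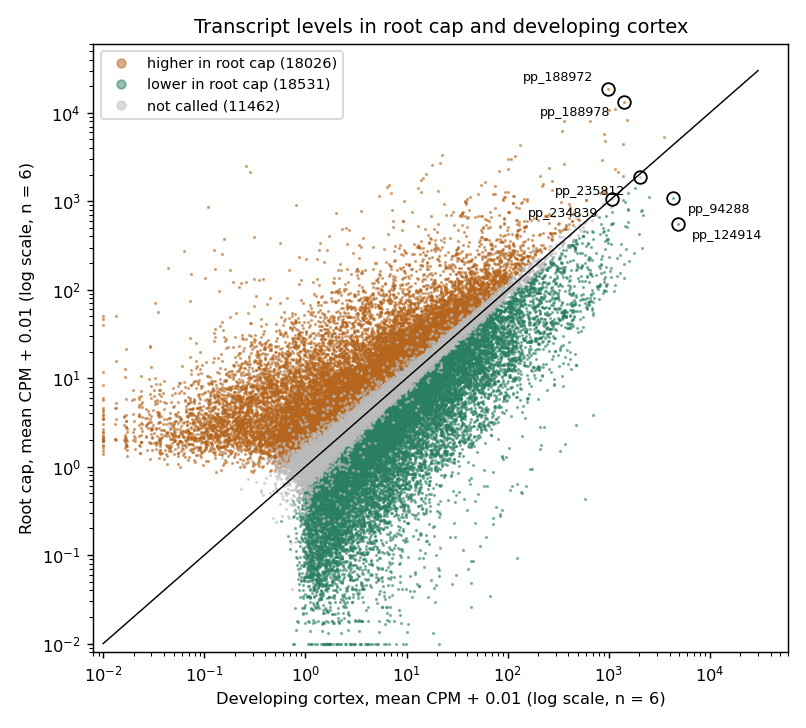
Each point is 1 of the 48019 transcripts tested, with its mean CPM in 6 developing cortex libraries on the x axis and in 6 root cap libraries on the y axis. Both axes are log scales after adding 0.01 CPM, and the line marks equal levels. The 18026 transcripts called higher in the cap spread above the line and the 18531 called lower below it, and the circled transcripts are those named by rule.

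From 1 CPM upward, the share of transcripts that differed was larger in each class of higher abundance. Below 1 CPM the trend did not hold: 73.9% of 2802 transcripts were called, 419 higher in the cap and 1653 lower. Among 21074 transcripts with a mean of 1 to 5 CPM over the 12 libraries, 71.2% were called and the median absolute fold change was 0.83 on the log2 scale. Among 1754 transcripts of 100 to 1000 CPM, 88.1% were called, 747 of them higher in the cap and 799 lower, with a median of 1.5. The 54 transcripts of at least 1000 CPM leaned to the cap: 35 were higher there and 17 lower, and their median absolute fold change was 2.48. In this last class the lead of higher transcripts was 34 against 17 with plain total scaling and 29 against 20 with quantile normalization.

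Transcript pp_188972 was the most abundant transcript of the root cap and had the largest difference in mean CPM. It had a lowest value of 13061, a median of 18423 and a highest value of 23688 CPM in cap libraries, against 463.4, 712.6 and 2223 CPM in cortex libraries. Every cap library stood above every cortex library. Within a set the cap held 10.3 to 39.4 times the cortex level, with the smallest ratio in KCl set 1. The fold change was 4.48 ± 0.25 on the log2 scale (SE, higher in 6 of 6 sets, limma adjusted p = 1.85e-06).

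Transcript pp_188978, close to it by ID number, had the next largest difference. Its values were 11153, 13580 and 16388 CPM (lowest, median, highest) in cap libraries and 866, 1247 and 2667 CPM in cortex libraries. The groups again did not overlap, and the ratio within a set was 5.3 to 14.7, also smallest in KCl set 1. The fold change was 3.35 ± 0.2 on the log2 scale (SE, 6 of 6 sets, limma adjusted p = 2.58e-06). Whether the 2 IDs are copies of 1 gene was not tested. Together they held 2.89% ± 0.298 of the CPM in cap libraries and 0.245% ± 0.139 in cortex libraries (SD, n = 6 each).

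Both transcripts were also present in the meristem and nearly absent from the vascular tissue. In the meristem pp_188972 had 2692 ± 1515 CPM and pp_188978 had 2016 ± 761 CPM (SD, n = 6). Their vascular levels were 12.9 ± 7.78 CPM for pp_188972 and 6.72 ± 4.77 CPM for pp_188978 (SD, n = 6). In a fit of all 4 areas, pp_188972 was higher in the cortex than in the vascular tissue by 6.21 ± 0.264 on the log2 scale and lower in the cortex than in the meristem, with a fold change of -1.51 ± 0.264 (SE, limma adjusted p = 1.92e-11 and 0.000221). For pp_188978 the cortex exceeded the vascular tissue by 7.93 ± 0.33 (SE, limma adjusted p = 1.54e-11), and the fold change of cortex over meristem was -0.53 ± 0.33 (SE, limma adjusted p = 0.206).

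In the other direction, pp_124914 had the largest deficit in the root cap. It had 316.8, 485.9 and 935.4 CPM (lowest, median, highest) in cap libraries, against 3913, 4972 and 5389 CPM in cortex libraries. All cap libraries lay below all cortex libraries, and the highest cap value came from KCl set 2. The fold change was -3.22 ± 0.224 on the log2 scale (SE, lower in 6 of 6 sets, limma adjusted p = 4.88e-06). Its mean was 4561 ± 1231 CPM in the meristem, and the vascular libraries averaged 6653 ± 1700 CPM (SD, n = 6 each). Neither the meristem nor the vascular tissue was shown to differ from the cortex (limma adjusted p = 0.708 and 0.112), whose fold changes over them were 0.11 ± 0.449 and -0.44 ± 0.449 on the log2 scale (± gives the 95% interval).

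Transcript pp_94288 followed, with 694.5, 1063 and 1599 CPM (lowest, median, highest) in cap libraries and 2917, 4700 and 5108 CPM in cortex libraries. The groups did not overlap, and the cap held 0.209 to 0.339 of the cortex level within a set. The fold change was -2.04 ± 0.122 on the log2 scale (SE, lower in 6 of 6 sets, limma adjusted p = 2.49e-06). It had 3506 ± 1016 CPM in the meristem and, in vascular libraries, 4981 ± 571 CPM (SD, n = 6 each), nearer to its 4367 ± 802 CPM in the cortex than to its 1084 ± 320 CPM in the cap.

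A few abundant transcripts stayed near the same level in both areas. The most abundant with a 95% interval within 0.5 of 0 was pp_235812, with 1612, 1898 and 2135 CPM (lowest, median, highest) in cap libraries and 1657, 1945 and 2744 CPM in cortex libraries. Its fold change was -0.08, with a 95% interval from -0.36 to 0.19 on the log2 scale. The next was pp_234839, with 869.8, 1050 and 1186 CPM in cap libraries and 878.4, 1036 and 1372 CPM in cortex libraries. Its fold change was -0.04, with an interval from -0.31 to 0.24. The groups overlapped for both. This near equality holds on the deposited scale: after quantile normalization both were called lower in the cap, with fold changes of -1.13 and -0.35 on the log2 scale (limma adjusted p = 0.000303 and 0.0391). The same normalization kept the direction and the call of the 4 transcripts above but moved their fold changes, to 3.28 for pp_188972, 2.27 for pp_188978, -4.16 for pp_124914 and -3.01 for pp_94288.

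**Figure D2:**
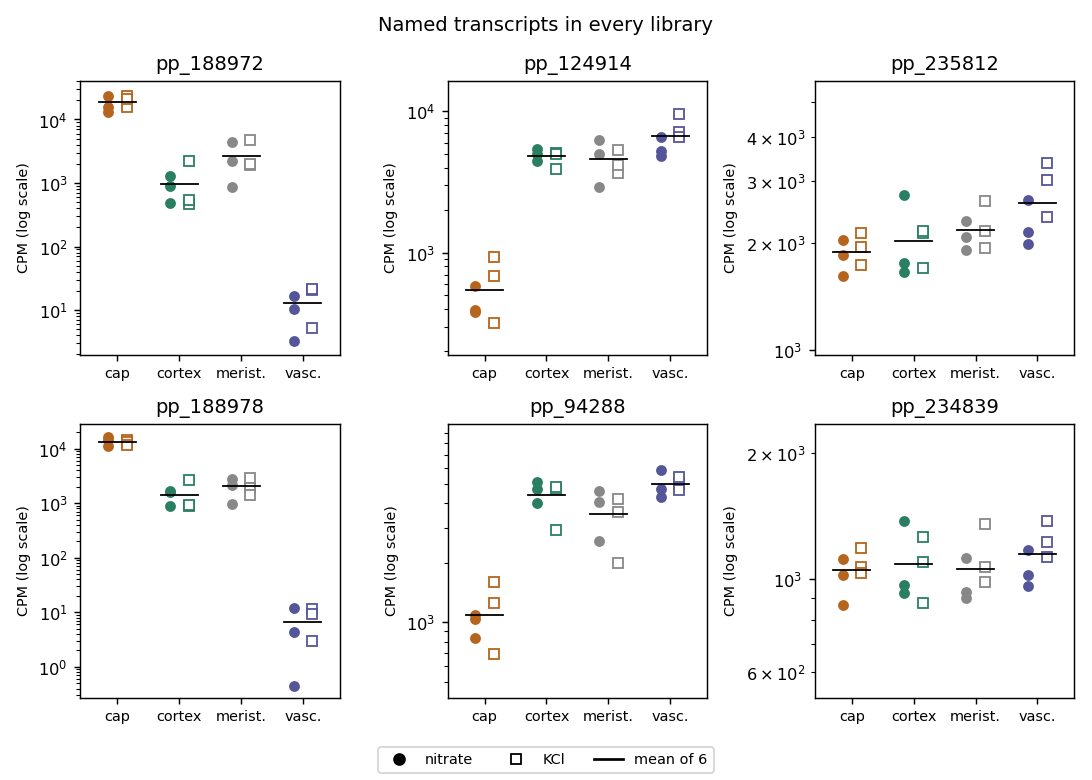
Level of 6 named transcripts in all 24 libraries, in CPM on a log scale; filled circles are nitrate libraries, open squares are KCl libraries and bars are means of 6. In pp_188972 and pp_188978 the cap libraries stand above all others, in pp_124914 and pp_94288 they stand below all others, and in pp_235812 and pp_234839 cap and cortex overlap.

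The RNA of the root cap was concentrated in fewer transcripts than that of the cortex. The 100 most abundant transcripts of a library held 19.7% to 23.9% of the CPM in the cap and 12.2% to 14.3% in the cortex. The top transcript alone held 1.69% ± 0.297 in the cap and 0.504% ± 0.018 in the cortex (SD, n = 6 each). It took 1264 ± 146 transcripts to reach 50% of the CPM in the cap, against 1684 ± 126 in the cortex (SD, n = 6 each). The ranges did not overlap in any of these measures, and the direction was the same in 6 of 6 sets. Each gave a two-sided exact permutation p of 0.0312 over the 6 sets, the smallest that 6 pairs allow, and 0.0352 after adjustment over 9 library measures. These shares do not depend on the scaling of a library.

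Counts of transcripts above a fixed level did depend on it. At 1 CPM the cap had fewer transcripts, 40036 ± 832 against 41397 ± 467 in the cortex (SD, n = 6 each, fewer in 6 of 6 sets, exact permutation p = 0.0312). At 5 CPM the cap had more, 22717 ± 292 against 22172 ± 139 (6 of 6 sets, exact permutation p = 0.0312), but with each library scaled to the same total it had 21549 ± 724 against 22464 ± 500 and was lower in 5 of 6 sets (exact permutation p = 0.0625). At 100 CPM the counts were 1734 ± 137 in the cap and 1718 ± 84.4 in the cortex (exact permutation p = 0.812), and with plain total scaling 1541 ± 73 and 1771 ± 12.3 (exact permutation p = 0.0312). Transcripts with no read numbered 1490 to 2644 in cap libraries and 900 to 1293 in cortex libraries, more in the cap in 6 of 6 sets (exact permutation p = 0.0312, adjusted p = 0.0352).

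**Figure D3:**
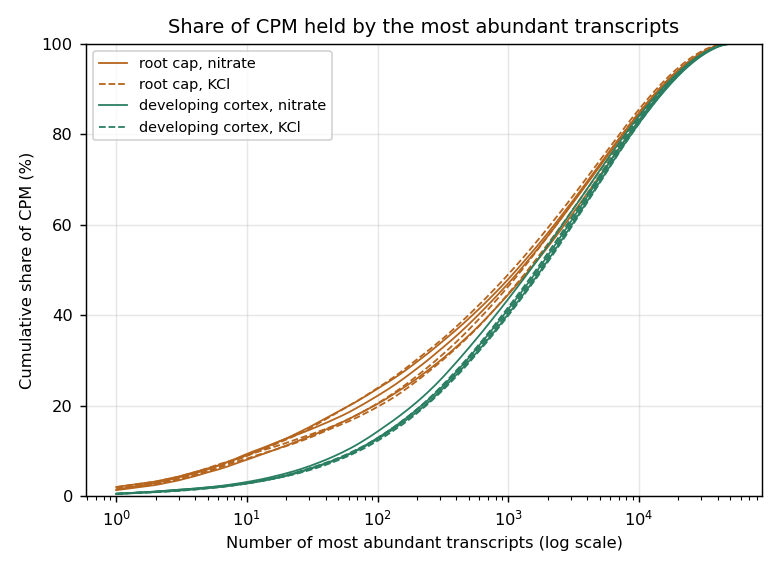
Cumulative share of CPM (y axis, %) against the number of most abundant transcripts counted (x axis, log scale), with a line for each of 6 root cap and 6 developing cortex libraries. At 100 transcripts the cap lines lie between 19.7% and 23.9% and the cortex lines between 12.2% and 14.3%.

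The most abundant transcripts of the cap were mostly higher there than in the cortex, though abundant in the cortex too. All 10 of the cap's top transcripts by mean CPM were called higher there, 9 of them at least 4-fold. They had 347.9 to 3485 CPM in the cortex and ranked from 3 to 378 there by mean CPM. Only 1 was also among the cortex's top 10. The top 10 of the cortex reached at most 4795 CPM there and were less one-sided. Of these, 8 were called higher in the cortex, 4 of them at least 4-fold, and 1 was called lower. The top 100 lists of both areas shared 30 transcripts. Transcripts picked for a high level in an area tend to be higher there, so these counts describe the lists and carry no test.

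The transcripts with the strongest differences were followed into the areas that had not been used to choose them. The 677 transcripts at least 16-fold higher in the cap held 15.2% ± 2.3 of the CPM in cap libraries and 0.558% ± 0.239 in cortex libraries (SD, n = 6 each), which describes how they were chosen. Outside that choice, they held 0.888% ± 0.396 of the CPM in the meristem and 0.0603% ± 0.0139 in vascular libraries (SD, n = 6 each). Their median level was 55.8 CPM in the cap, 1.35 in the cortex, 0.19 in the meristem and 0.0572 in the vascular tissue. Over all 48019 transcripts tested, the medians were 4.67, 4.39, 4.26 and 4.07 CPM in the same order. In the meristem 445 of the 677 were below 1 CPM and 12 reached at least 50% of their cap level. The summed level in the meristem thus exceeded that in the cortex although the median transcript was lower there; of a mean sum of 7819 CPM in the meristem, pp_188972 alone held 2692 CPM.

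The 402 transcripts at least 16-fold lower in the cap likewise had median levels in meristem and vascular tissue nearer to the cortex than to the cap. They held 0.138% ± 0.0989 of the CPM in cap libraries and 3.73% ± 0.365 in cortex libraries (SD, n = 6 each), by choice. Meristem libraries held 3.99% ± 0.723 and vascular libraries 4.38% ± 0.459 (SD, n = 6 each), near the cortex share. Their median level was 1.83 CPM in the cap, 45.9 in the cortex, 42.3 in the meristem and 43.2 in the vascular tissue. Of the 402, 264 had at least 50% of their cortex level in the meristem and 297 in the vascular tissue. With 4-fold as the limit the pattern was the same: the 4416 transcripts lower in the cap had medians of 1.44 CPM in the cap and 14.8, 14.2 and 15.1 CPM in cortex, meristem and vascular tissue, and the 4581 higher ones had 13.2, 0.983, 0.53 and 0.254 CPM in the same order.

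**Figure D4:**
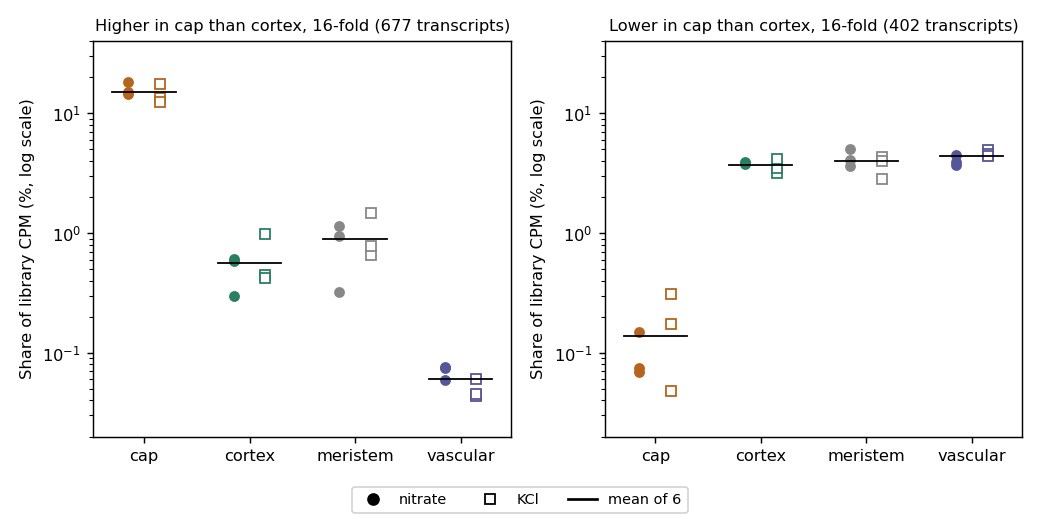
Share of each library's CPM (log scale, %) held by the 677 transcripts at least 16-fold higher in the cap than in the cortex (left) and by the 402 at least 16-fold lower (right), in all 24 libraries; filled circles are nitrate, open squares are KCl and bars are means of 6. The left list is highest in the cap and lowest in the vascular tissue, whereas the right list is low in the cap and lies between 2.85% and 5.04% in every library of the other areas.

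Set side by side in 1 fit of all 4 areas, the differences of the cap from each other area were larger than those of the cortex from the meristem and the vascular tissue. These contrasts share libraries, so they are given as values only. The transcripts tested were chosen by their level in cap and cortex libraries alone. They held 99.9% of the CPM in the cap, 99.8% in the cortex, 99.6% in the meristem and 99% in the vascular tissue. Transcripts found mainly in the meristem or the vascular tissue could thus be left out, and the counts of transcripts lower in cap or cortex than there miss them. The median absolute fold change was 0.919 on the log2 scale for cap against cortex, 1.04 for cap against meristem and 1.11 for cap against vascular tissue. It was 0.336 for cortex against meristem and 0.303 for cortex against vascular tissue. Transcripts at least 16-fold higher numbered 677, 1394 and 1970 for the cap over cortex, meristem and vascular tissue, and 402, 508 and 650 were as much lower. In that fit the cap was higher than the cortex for 39.1% of transcripts and lower for 40.5%. It was higher than the meristem for 41.3% and lower for 41.4%, and higher than the vascular tissue for 41.9% and lower for 40.8%. The cortex was higher than the meristem for 24.1% and lower for 19.3%, and higher than the vascular tissue for 23.3% and lower for 14.9%.

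The size of the area difference varied between root-tip sets. The median absolute difference within a set was lowest in KCl set 2, at 0.73 on the log2 scale, and highest in KCl set 3, at 1.14. Transcripts at least 16-fold lower in the cap numbered 153 in KCl set 2, 201 in KCl set 1, 1193 in KCl set 3 and 344 to 774 in the nitrate sets. Those at least 16-fold higher numbered 530, 461 and 1046 in the same KCl sets and 871 to 1109 in the nitrate sets. The cap library of KCl set 2 also held the most of the 402 transcripts listed above, 3330 CPM in all, against 548.4 CPM in that of KCl set 3. In cortex libraries the 677 cap transcripts summed to 2932 to 9687 CPM, highest in KCl set 1. Whether these levels have a part in the size of the area difference was not tested. Between libraries of 1 group, the median SD on the log2 scale over 24143 transcripts with a mean of at least 5 CPM was 0.278 in the cap with nitrate and 0.363 in the cap with KCl, and 0.163 and 0.214 in the cortex with nitrate and with KCl. Without any 1 set, 16716 to 17616 transcripts were higher in the cap and 17293 to 18095 were lower.

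The area difference was measured apart in the nitrate sets and in the KCl sets, which share no library. In nitrate sets fitted alone, 16584 transcripts were higher in the cap (34.5% of those tested) and 17154 lower (35.7%). In KCl sets fitted alone, 13138 were higher (27.4%) and 13585 lower (28.3%). With all 12 libraries in the fit, 15926 were higher (33.2%) and 16513 lower (34.4%) in nitrate sets, and 14944 (31.1%) and 15488 (32.3%) in KCl sets. The 12499 transcripts higher in both made up 75.4% of the nitrate list and 95.1% of the KCl list, and the 13030 lower in both made up 76% and 95.9%. Of the transcripts called higher in KCl sets, 99.6% had the same sign in nitrate sets, as had 99.8% of those called lower. The sizes were close, though somewhat larger in nitrate sets. Transcripts called higher in KCl sets had a median fold change of 1.59 on the log2 scale in nitrate sets and 1.52 in KCl sets, and those called lower had -1.63 and -1.5. For transcripts called higher in nitrate sets the medians were 1.36 in nitrate sets and 1.25 in KCl sets, and for those called lower -1.415 and -1.27.

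Whether the solution changed the area difference was tested directly, as the difference in nitrate sets minus that in KCl sets. No transcript passed by limma (0%), which called 0 higher and 0 lower, with 1124 and 843 at an unadjusted p below 0.05, together 4.1% of the 48019 tested. With edgeR none passed either (0, and 1526 unadjusted, 3.18%), whereas DESeq2 called 51 of the 48019. A count of 0 does not show that the area difference was the same with both solutions. Without KCl set 3, limma called 3 of the 48019 transcripts, all with a lower area difference in nitrate sets. They were pp_143813, pp_143814 and pp_143815, with consecutive ID numbers and fold changes of -2.96, -3.03 and -2.99 on the log2 scale (limma adjusted p = 0.0316 each). All 3 were named after their values were seen. In that fit 2544 and 3878 of the 48019 had an unadjusted limma p below 0.05 in the higher and lower direction. Leaving out any other single set gave 785 to 995 and 674 to 894.

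The transcripts with the smallest limma p-values of that test are given although they miss its threshold. Transcript pp_206106 had 110.1, 42.1 and 98.6 CPM in nitrate cap libraries and 30.2, 3.24 and 11.6 CPM in KCl cap libraries. In the cortex it had 3.45, 0.986 and 3.7 CPM with nitrate and 4.54, 1.77 and 3.53 CPM with KCl. All nitrate cap libraries were above all KCl cap libraries, while the cortex libraries overlapped. Its area difference was larger with nitrate by 3.1 ± 0.438 on the log2 scale (SE, limma adjusted p = 0.771). By edgeR the adjusted p was 1, whereas DESeq2 called it, with 3.24 and an adjusted p of 4.83e-06. The cap was above the cortex in all 6 sets.

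Transcript pp_162477 had 10.1, 7.44 and 8.28 CPM in nitrate cap libraries and 0.346, 1.56 and 0.142 CPM in KCl cap libraries, and no read in any of the 6 cortex libraries. Its area difference was larger with nitrate by 3.12 ± 0.469 (SE, log2 scale, limma adjusted p = 0.771). Conversely, pp_125274 had no read in the 6 cap libraries, with 4.14, 11.6 and 12.4 CPM in nitrate cortex libraries and 0.253, 0.0566 and 0.551 CPM in KCl cortex libraries. The corresponding value was -3.56 ± 0.486 (SE, log2 scale, limma adjusted p = 0.771). With 0 reads in an area these sizes depend on the added 0.5 CPM: with 0.1 CPM added they were 3.94 for pp_162477 and -4.69 for pp_125274. Each was present in only 1 of cap and cortex, and there its nitrate libraries were all above its KCl libraries. In the meristem pp_125274 had 1.16 to 4.91 CPM with nitrate and 0.111 to 1.19 CPM with KCl, which overlap. In the vascular tissue it had 4.54 to 5.47 CPM with nitrate and 1.94 to 3.15 CPM with KCl. Neither edgeR nor DESeq2 called pp_162477 or pp_125274 for a difference between solutions. In the fit of all 24 libraries, which includes the 12 that singled them out, pp_162477 and pp_206106 passed (limma adjusted p = 0.0247 and 0.0491). With them came pp_104579, which was named after its values were seen and had a value of -3.03 on the log2 scale for the area difference with nitrate minus that with KCl (limma adjusted p = 0.0214).

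Transcript pp_211718 changed sides. It had 0.594, 0.949 and 0.741 CPM in nitrate cap libraries and 2.63, 2.46 and 1.7 CPM in nitrate cortex libraries. With KCl it had 318.7, 12.4 and 5.13 CPM in the cap and 76.7, 3.79 and 2.37 CPM in the cortex. The cap was thus below the cortex in each nitrate set and above it in each KCl set, and KCl set 1 was far above the others in both areas. The difference was -2.66 ± 0.343 on the log2 scale (SE, limma adjusted p = 0.771). The transcript did not pass by edgeR either (adjusted p = 0.926) but was among the calls of DESeq2, with -3.21 and an adjusted p of 3.2e-09.

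**Figure D5:**
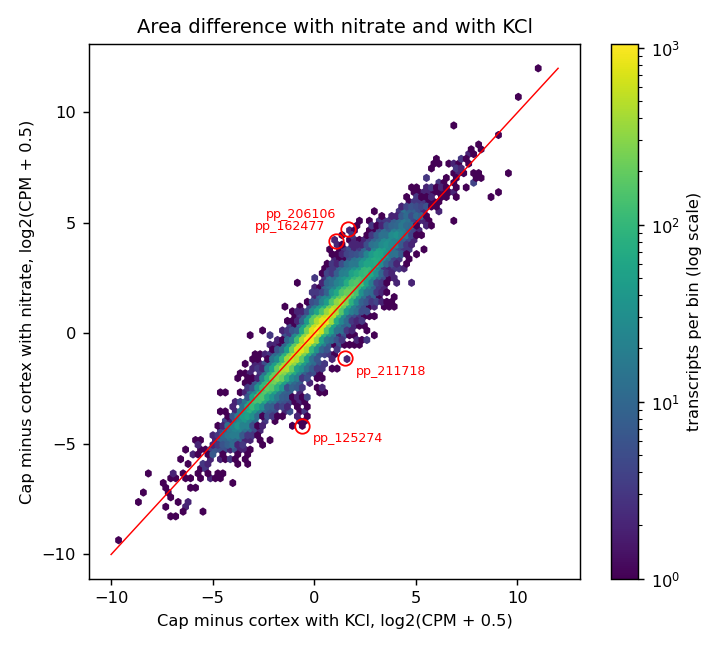
Cap minus cortex on the log2(CPM + 0.5) scale in KCl sets (x axis) and nitrate sets (y axis) for 48019 transcripts, as counts per hexagon on a log colour scale, with a line of equality. Most transcripts lie along the line; the 4 circled transcripts had the smallest limma p-values in each direction for a difference between solutions and did not pass limma's adjusted threshold.

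Complete absence from either area was rare. No read in all 6 cap libraries together with at least 1 CPM in all 6 cortex libraries was found for 13 transcripts, and the reverse also for 13. With at most 3 reads in every library of the area in place of no read, the numbers were 50 absent from the cap and 44 absent from the cortex. At 5 CPM in all 6 libraries of the other area, 0 were without a read in the cap and 2 without a read in the cortex. These were pp_95036 and pp_159505, named after their values were seen. Transcript pp_95036 had 18, 56.5 and 78.3 CPM (lowest, median, highest) in cap libraries and up to 34.6 CPM in the meristem. Its lowest cap library was at least about 285-fold higher than the cortex, taken at the level of 3 reads per library. For pp_159505 the values were 9.09, 18.5 and 149.9 CPM in cap libraries and at most 0.231 CPM in the meristem. The lowest cap library of pp_159505 was at least about 144-fold higher than the cortex at the same level. Limits of this kind cover counting error only.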

How the data were processed

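RNA from laser-microdissected root tip areas was sequenced as paired-end reads of 150 bp after amplification for low input, per the labels' protocols, which kept RNA with an integrity number above 7. The tools listed, per the submitters' processing notes, are BWA and bcl2fastq; how reads were counted and scaled, and on which reference, was not given in the sources used here. Values of 51211 transcripts were deposited by the authors as a signal called CPM, a read count times a factor for the library. Divided by that factor, 100% of the values in the 12 libraries were whole reads (tolerance 0.02 reads), here called recovered reads.

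Plain CPM had been assumed in the plan; the log-scale test was kept for this signal. The test covered 48019 transcripts that reached 1 CPM in 3 or more of the 12 libraries, with 3192 left out, as log2(CPM + 0.5), which understates changes of low transcripts. limma 3.58.1 in R 4.3.3 was fitted with a variance trend, a block for each of the 6 root-tip sets and 1 area difference per solution, with Benjamini-Hochberg adjustment over all transcripts. A call is an adjusted p below 0.05. The contrast of cap and cortex is the mean over solutions. edgeR 4.0.16 and DESeq2 1.42.0 ran on recovered reads, and exact permutation tests in scipy 1.17.1 flipped the signs of the 6 paired differences. The procedure was tested on simulated counts.

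The pairing is not stated in the labels. Deviations from group means correlated across transcripts at 0.352 to 0.606 between cap and cortex with equal solution and number (6 pairs) and at -0.366 to -0.00274 for different numbers. Deviations from a mean of 3 libraries cancel out. The negative values thus go with the positive ones and are no separate evidence of pairing. These correlations cannot tell shared root tips from a shared experiment or processing batch.

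Named transcripts followed a rule: the 2 largest differences in mean CPM in each direction among calls of at least 2-fold with 1 sign in 6 sets, the 2 smallest interaction p-values in each direction, and the 2 most abundant near-equal transcripts. The comparison, the rule and the lists were chosen with earlier results of these data known. The meristem and vascular libraries entered only the fit of 4 areas and the levels given beside it.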

Additional observations from a re-analysis of the deposited data

Results flagged for a closer look

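In 42 checks of 6 libraries each, over library measures and named transcripts, 6 held a library far from the rest; chance singles out about 1 such group in 20. The cap library of KCl set 3 had the most transcripts with no read, 2644 against 1490 to 1854 in the other cap libraries, and the fewest at or above 1 CPM, 38412. The top transcript held 0.469% of the CPM in the cortex library of nitrate set 3, the lowest share among cortex libraries. The top 100 transcripts held 14.3% in the cortex library of nitrate set 1, the highest.

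Transcript pp_211718 stood out in KCl set 1, with 318.7 CPM in the cap and 76.7 CPM in the cortex. Its area difference was negative in all 3 nitrate sets and positive in all 3 KCl sets, and nitrate minus KCl was -2.66 on the log2 scale, which did not pass by limma (adjusted p = 0.771) or edgeR (adjusted p = 0.926) but did by DESeq2 (adjusted p = 3.2e-09).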

How the results depend on the processing

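Over 20 other settings without a fold limit, 15348 to 18755 transcripts were higher in the cap and 16077 to 20570 lower, all within 1.5 times of 18026 and 18531. Asking also for a 2-fold change left 10816 and 11592. With plain total scaling 43.3% of calls were higher, against 49.3% as deposited. Without a replicate block, 16769 were higher and 17521 lower; the block changed the call of no named transcript.

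The test of the solution gave 2 higher and 1 lower in all 24 libraries, 15 and 36 by DESeq2, and 0 higher and 0 to 3 lower without any 1 set. Near zero, the sign of pp_234839 turned, with 0.00429 by edgeR and -0.0855 to 0.0318 without 1 set. For pp_125274, which had no read in the cap libraries, DESeq2 gave an interaction of 0, against -3.56 by limma and -5.09 by edgeR. The cause was not tested. The count at 1 CPM turned to 545.3 more in the cap at 5 CPM, and that at 100 CPM to -230.7 with plain total scaling, where the surplus at 1000 CPM was 8.67 (23.7 as deposited). At 5 CPM in all 6 libraries, 0 transcripts lacked reads in the cap and 2 in the cortex.

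Without 1 set, cap minus cortex ran from 1.12 to 1.26 percentage points for the top transcript, 5.74 to 6.03 for the top 10, 8.35 to 9.08 for the top 100 and 4.97 to 5.77 for the top 1000. It was -458.6 to -392.8 transcripts for 50% of the CPM, -1611 to -1144 at 1 CPM, -16.6 to 67 at 100 CPM, 20.8 to 26 at 1000 CPM and 564.8 to 798.8 without a read. With 5 sets an exact permutation p cannot fall below 0.0625, so these show the direction only.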

Other observations

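Transcripts with consecutive ID numbers often stood together in the lists of strong differences. Of the 677 transcripts at least 16-fold higher in the cap, 458 lay in runs of consecutive numbers, which left 379 separate runs, and of the 402 lower ones 218 did, which left 265. Among all 48019 transcripts tested, 86% lay in such runs. This share cannot be set beside those of the lists, because a longer list holds more neighbouring numbers. The lists were not tested for more runs than their length would give. Whether a run stands for copies or forms of 1 gene was not tested.

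In nitrate and KCl sets fitted alone, 12499 transcripts were called higher in the cap in both fits and 13030 lower in both. Only 6 of the 48019 transcripts tested were called in opposite directions. Of these, 5 were higher in the cap with KCl and lower with nitrate, and 1 was the reverse. Among them pp_211717 is the neighbour of pp_211718 by number, with fold changes of -1.52 with nitrate and 1.09 with KCl on the log2 scale (limma adjusted p = 0.000902 and 0.0382), and pp_78904 and pp_78905 are likewise neighbours. The others were pp_202628, pp_211718 and pp_234275. All 6 were singled out after their values were seen. Some calls lay near the threshold. The limma adjusted p was 0.0464 with nitrate and 0.0354 with KCl for pp_202628, and 0.0483 with nitrate for pp_78904. The direct limma test of nitrate minus KCl called no transcript, so by limma a reversal was not shown, whereas DESeq2 called pp_211718.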
